A study of Homo sapiens with 18 samples.

Results

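SGK1, a serum- and glucocorticoid-regulated kinase, and its relative SGK3 were followed at the mRNA level in MDA-MB-231 cells. With them were FOXO1, FOXO3, FOXO4 and NEDD4L, genes for known substrates of such kinases, and NEDD4, a relative of NEDD4L. The 7 genes were chosen by symbol, out of 60642 symbols counted in each library, and all 7 were among the 15298 genes with enough counts to be tested. MDA-MB-231 is an established human triple-negative breast cancer cell line, maintained in medium with fetal bovine serum and, per the paper's methods, moved to medium without phenol red and with charcoal-stripped serum, which is low in steroids, ahead of experiments. Cells were transfected for 48 h with 25 nM of an siRNA pool against HP1γ (siHP1γ, whose target gene is CBX3), against the arginine methyltransferase PRMT5 (siPRMT5) or of a non-specific sequence (siNS), and received 100 nM of the glucocorticoid dexamethasone (Dex) or the same volume of the ethanol vehicle (Eth) for 8 h. The 6 conditions had 3 biological replicates each. Every group was a transient transfection of 1 cell line, with the siNS groups as controls, and the study asked which Dex-regulated genes depend on HP1γ and PRMT5.

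SGK kinases are activated through PI3 kinase, PDPK1 and the mTORC2 complex, much as AKT is. FOXO transcription factors, when phosphorylated by these kinases, are bound by 14-3-3 proteins and kept out of the nucleus. NEDD4L is a ubiquitin ligase that removes the epithelial sodium channel from the cell surface, and its phosphorylation by SGK1 limits this removal. NEDD4 is the founding member of the same ligase family. SGK1 is a classical glucocorticoid-induced gene. Sequencing counts show mRNA only, so phosphorylation, protein amount and kinase activity were not measured.

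Reads counted on genes ranged from 8682992 to 12472381 per library. Levels are given as CPM (counts relative to the library total, scaled by TMM). PRMT5 lay between 177 and 262 CPM in the 12 libraries without its siRNA and between 6.10 and 11.5 CPM with it. CBX3 lay between 218 and 288 CPM without siHP1γ and between 9.23 and 15.8 CPM with it. Against siNS, siHP1γ also lowered PRMT5, by log2 fold changes of -0.25 with Eth (adjusted p = 0.0111) and -0.35 with Dex (adjusted p = 0.00123). For residual target mRNA, Dex against Eth gave 0.52 for PRMT5 in siPRMT5 cells (adjusted p = 0.00634) and 0.48 for CBX3 in siHP1γ cells (adjusted p = 0.0273). Neither passed the limits for a Dex response given below. The PRMT5 response differed from that in siNS cells by 0.57 (adjusted p = 0.0297). For CBX3 the difference of 0.63 was not called (adjusted p = 0.0680). The mesenchymal markers VIM, CD44, AXL and CAV1 and the glucocorticoid receptor gene NR3C1 were between 116 and 9592 CPM in every library, while ESR1, PGR, CDH1 and all 3 leukocyte markers stayed below 1 CPM. The luminal list also held EPCAM, FOXA1 and GATA3, at no less than 8.57, 3.27 and 2.68 CPM in every library. It summed to between 16.2 and 30.4 CPM. The endothelial list summed to between 1.99 and 8.26 CPM, mostly PECAM1. The part of both lists in the results was not tested.

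On hg38 with the GENCODE 44 annotation, SGK1 is at chr6:134169248-134318112 on the minus strand and NEDD4 at chr15:55826922-55993660 on the minus strand. NEDD4L is at chr18:58044226-58401540 on the plus strand, where exons of 2 antisense lncRNA genes overlap its exons. FOXO1 is at chr13:40555667-40666641 on the minus strand, FOXO3 at chr6:108559835-108684774 on the plus strand and FOXO4 at chrX:71095851-71103532 on the plus strand. The strand setting of the counting is not given in the sources used here, so reads of NEDD4L and of its antisense partners cannot be told apart, and reads of FOXO3 and its near-identical copy FOXO3B can be exchanged.

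Windows of 250 bases before RefSeq transcript starts (GRCh38.p14) were found for 6 of the 7 genes, SGK3 being the exception. Of 3 windows each of SGK1 and NEDD4, the genes of the 7 that rose with Dex in the comparisons below, the 2 SGK1 windows at its outermost starts and 1 NEDD4 window are shown. Each is written 5′ to 3′ in the gene's direction, without bases that lie in annotated exons. Capitals mark 6-letter matches on the reverse strand. In SGK1 the match is to the TATA box letters, and in NEDD4 to 1 arm of the palindromic glucocorticoid receptor site.
SGK1 window 1 (chr6:134318113-134318362, minus strand): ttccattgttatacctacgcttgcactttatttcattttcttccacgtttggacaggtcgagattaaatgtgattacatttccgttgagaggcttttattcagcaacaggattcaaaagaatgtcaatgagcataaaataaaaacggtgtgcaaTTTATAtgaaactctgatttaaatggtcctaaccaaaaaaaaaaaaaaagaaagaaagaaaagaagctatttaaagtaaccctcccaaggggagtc
SGK1 window 3 (chr6:134174869-134175116, minus strand): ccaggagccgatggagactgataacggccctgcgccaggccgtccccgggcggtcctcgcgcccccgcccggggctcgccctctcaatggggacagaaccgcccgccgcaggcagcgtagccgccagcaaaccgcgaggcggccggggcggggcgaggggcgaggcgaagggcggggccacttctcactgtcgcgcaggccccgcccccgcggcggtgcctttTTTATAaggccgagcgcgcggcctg
NEDD4 window 1 (chr15:55917137-55917386, minus strand): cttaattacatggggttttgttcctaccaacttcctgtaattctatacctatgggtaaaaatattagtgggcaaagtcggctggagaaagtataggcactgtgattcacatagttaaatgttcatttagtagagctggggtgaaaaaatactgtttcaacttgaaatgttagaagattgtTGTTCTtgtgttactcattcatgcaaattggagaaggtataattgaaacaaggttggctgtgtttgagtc
The SGK1 starts differ in composition: window 1 has 33.6% GC and window 3, at the downstream start, has 76.0% GC and 6 matches to the GC box GGGCGG. On either strand, the TATA box letters TATAAA were found in all 3 SGK1 windows and in 10.7% of the 35116 RefSeq windows, and the GC box letters in 42.6% of them. No SGK1 window held that arm, searched as AGAACA and present in 12.4% of all windows. The FOXO element, searched as GTAAACA, was present in 2.98% of all windows and in none of SGK1. In NEDD4 the arm begins at position -70 relative to the start, and another NEDD4 window, which overlaps the first almost wholly, holds the same match. Window 1 of NEDD4L, which fell with Dex, also holds this match, at position -78, while NEDD4L windows 2 to 5 do not. No window of FOXO1, FOXO3 or FOXO4 holds it. The full receptor palindrome was searched too and was in no window of these genes. An exact match was in only 1 of the 35116 windows (0.0028%), so its absence here says nothing particular about these genes. These matches describe letters in short windows, and binding was not measured here.

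Dex raised SGK1 mRNA in all 3 siRNA backgrounds, and the rise was smaller in siHP1γ cells. Among the ligases, NEDD4L fell with Dex in siNS cells and NEDD4 rose with Dex in siPRMT5 cells, and the ratio of NEDD4L to NEDD4 counts was lower with Dex than with Eth in every background. FOXO1, FOXO3, FOXO4 and SGK3 passed no test for a Dex response. Both depletions lowered NEDD4L and raised FOXO4, while SGK1 moved in opposite directions, down under siHP1γ and up under siPRMT5. Each library's level of the 7 genes is plotted below in CPM.

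**Figure D1:**
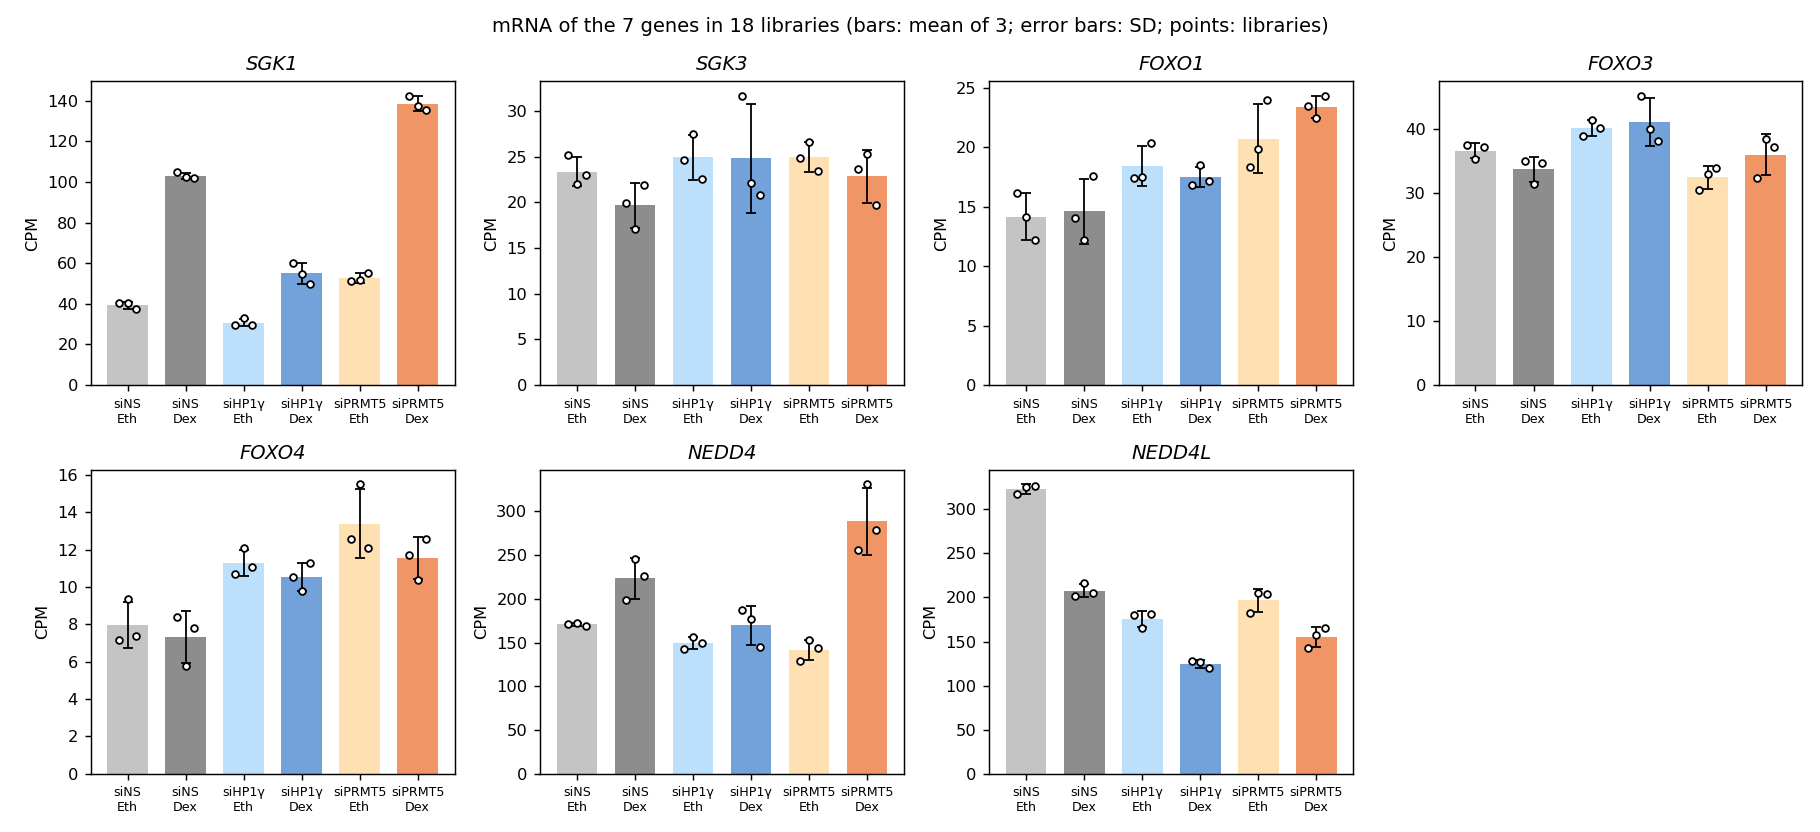
mRNA levels (CPM, linear axis from 0) of the 7 genes in the 6 conditions, with bars at the mean of 3 libraries, error bars for the SD and a point for each library. SGK1 is highest in siPRMT5 Dex (135 to 143 CPM) and NEDD4L in siNS Eth (317 to 327 CPM), while the libraries of SGK3 overlap between most conditions.

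The Dex response was called at a Benjamini-Hochberg adjusted p under 0.01 with a change of at least 1.5-fold, and depletions and differences of the Dex response at an adjusted p under 0.05. With Dex in siNS cells 2 of the 7 genes were called, SGK1 higher and NEDD4L lower, where 2.71% of all genes tested were called. In siHP1γ cells 1 was called, SGK1 (1.67% of all genes), and in siPRMT5 cells 2, SGK1 and NEDD4, both higher (5.44%). The depletions called 5 of the 7 for siHP1γ against siNS with Dex (24% of all genes) and 4 without Dex (31.8%), and 5 for siPRMT5 against siNS both with Dex (42.4%) and without (42.1%), so that for the depletions a large share of all genes was also called. The difference of the Dex response was called for 1 gene in siHP1γ cells, SGK1 (0.399% of all genes), and for 1 in siPRMT5 cells, NEDD4 (3.8%). Comparisons of both depletions use the same siNS libraries, and their values are therefore not independent of each other.

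**Figure D2:**
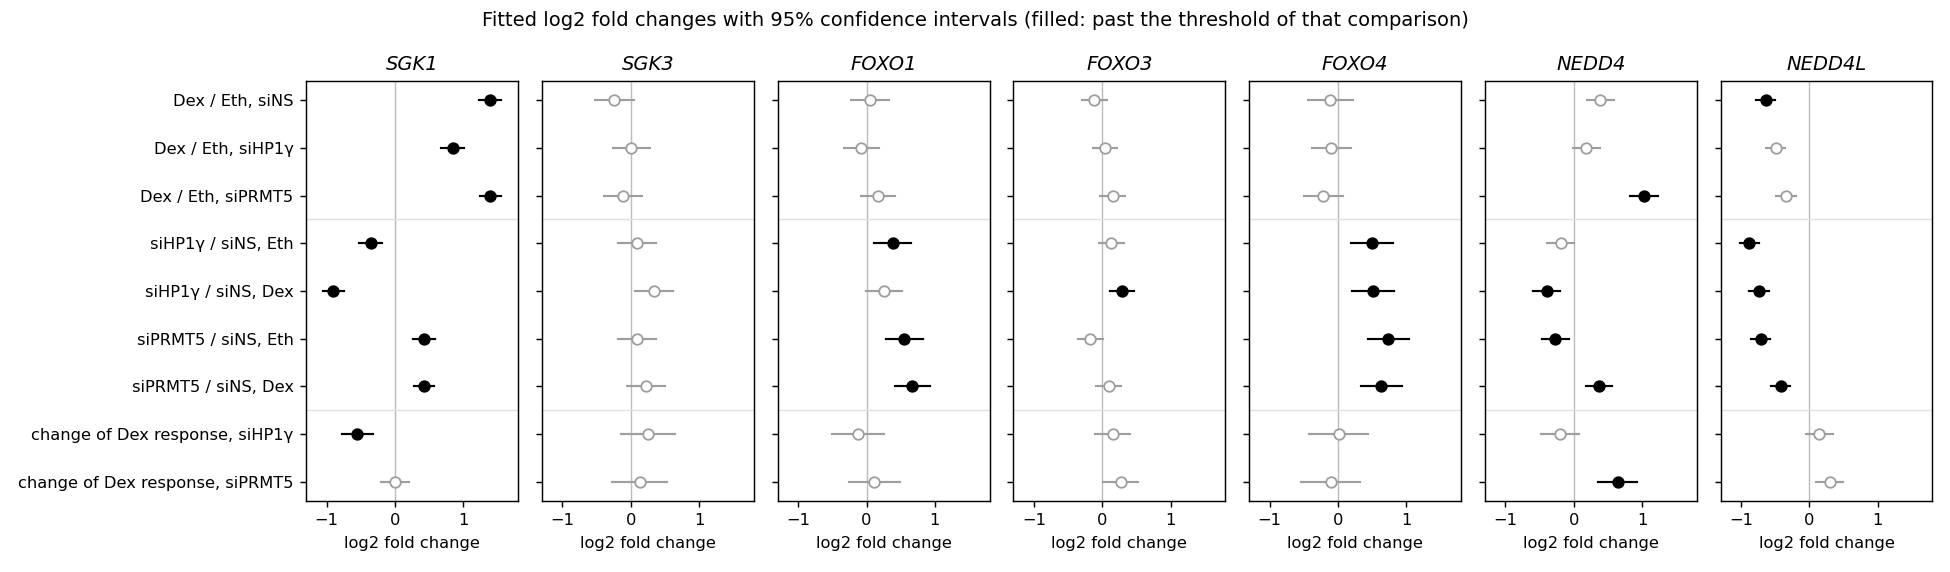
Fitted log2 fold changes (x axis) with 95% confidence intervals for the 7 genes in 9 comparisons (rows), filled where past the threshold. SGK1 responded to Dex by 1.39 in siNS, 0.84 in siHP1γ and 1.39 in siPRMT5 cells, and NEDD4 by 1.03 in siPRMT5 cells.

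SGK1 was at 40.3, 40.3 and 37.4 CPM in the 3 siNS Eth libraries and at 105, 103 and 102 CPM with Dex. After siHP1γ it was at 29.6, 32.8 and 29.7 CPM with Eth and at 60.1, 54.9 and 49.9 CPM with Dex. The siPRMT5 libraries had 51.1, 51.9 and 55.4 CPM with Eth and at 143, 138 and 135 CPM with Dex. Every Dex library was above every Eth library of the same siRNA, and from siHP1γ Eth at the bottom to siPRMT5 Dex at the top only siPRMT5 Eth and siHP1γ Dex, neighbours in this order, overlapped.

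Dex thus raised SGK1 2.62-fold in siNS cells (log2 fold change 1.39 ± 0.076 SE, adjusted p = 3.07e-13) and 2.62-fold in siPRMT5 cells (1.39 ± 0.074, adjusted p = 1.13e-13). In siHP1γ cells the rise was 1.79-fold (0.84 ± 0.079, adjusted p = 2.78e-08). The difference between the siHP1γ and siNS responses was -0.55 ± 0.11 on the log2 scale (95% confidence interval -0.78 to -0.32, adjusted p = 0.0209), the fold change with Dex in siHP1γ cells being 68.3% of that in siNS cells. This difference kept its call under the 7 other settings tried (adjusted p from 0.00128 to 0.0432) but lost it when 1 of 5 libraries was left out: siNS Eth replicate 1 (adjusted p = 0.0544) or 3 (0.111), siNS Dex replicate 1 (0.0719) or 3 (0.0600), or siHP1γ Eth replicate 2 (0.0666), with estimates between -0.56 and -0.50. The same difference for siPRMT5 was -0.00075 with an interval of -0.20 to 0.20 (adjusted p = 0.998), and the interval leaves room for a change in either direction within it.

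Between siRNAs, SGK1 in siHP1γ cells was 1.28-fold lower with Eth (log2 fold change -0.36 ± 0.082, adjusted p = 0.00159) and 1.87-fold lower with Dex (-0.91 ± 0.073, adjusted p = 1.11e-09). In siPRMT5 cells it was higher by a log2 fold change of 0.43 both with Eth (adjusted p = 9.81e-05) and with Dex (adjusted p = 2.43e-05). These were bulk libraries, in which a lower level per cell and fewer cells with the transcript cannot be told apart.

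SGK3, which binds endosomal membranes through a PX domain, is at chr8:66712734-66862022 on the plus strand, and its exons are shared with the readthrough gene C8orf44-SGK3, which has no row of its own in the files. It had 157 to 403 counts per library, at 25.2, 22.0 and 23.0 CPM in siNS Eth and at 19.96, 17.1 and 21.9 CPM in siNS Dex libraries, the lowest condition. In siHP1γ libraries SGK3 was at 24.7, 27.5 and 22.6 CPM with Eth and at 31.7, 22.1 and 20.8 CPM with Dex, where replicate 1 stood above the others. Levels after siPRMT5 ranged from 23.4 to 26.7 CPM with Eth and from 19.7 to 25.3 CPM with Dex. All neighbours in the order of its 6 condition means overlapped, and none of the 9 comparisons was called. The nearest was siHP1γ against siNS with Dex (0.34 ± 0.13, adjusted p = 0.0659), which was 0.12 without siHP1γ Dex replicate 1 (adjusted p = 0.556). That comparison was called without siHP1γ Dex replicate 2 (0.42, adjusted p = 0.0441) or 3 (0.46, adjusted p = 0.0167), with library size alone as scaling (0.42, adjusted p = 0.0206) and with no filter on low counts (0.33, adjusted p = 0.0386).

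NEDD4L, the ligase that SGK1 restrains, was at 317, 326 and 327 CPM in siNS Eth libraries and at 202, 216 and 205 CPM in siNS Dex libraries. In siHP1γ libraries NEDD4L was at 179.5, 165 and 181 CPM with Eth and at 127, 126 and 119 CPM with Dex. The siPRMT5 libraries were at 182, 205 and 204 CPM with Eth and at 143, 157 and 165 CPM with Dex. Every siNS Eth library was above all others, and within each siRNA the Dex libraries were below the Eth libraries.

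With Dex, NEDD4L fell 1.56-fold in siNS cells (log2 fold change -0.64 ± 0.068, adjusted p = 1.11e-07). In siHP1γ cells it was 1.41-fold lower with Dex (-0.50 ± 0.069, adjusted p = 1.59e-05) and in siPRMT5 cells 1.27-fold lower (-0.34 ± 0.069, adjusted p = 6.07e-04), both past the p threshold and short of the 1.5-fold limit. The difference from the siNS response was 0.14 in siHP1γ cells (interval -0.06 to 0.34, adjusted p = 0.466) and 0.29 in siPRMT5 cells (0.10 to 0.49, adjusted p = 0.0846). The latter was called by DESeq2 (adjusted p = 0.0440) and without siPRMT5 Dex replicate 1 (0.36, adjusted p = 0.0392).

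Both depletions lowered NEDD4L also without Dex. With Eth it was 1.84-fold lower in siHP1γ cells (-0.88 ± 0.068, adjusted p = 3.75e-10) and 1.64-fold lower in siPRMT5 cells (-0.71 ± 0.068, adjusted p = 4.47e-09). With Dex it was 1.67-fold lower (-0.74 ± 0.069, adjusted p = 1.26e-08) and 1.34-fold lower (-0.42 ± 0.068, adjusted p = 1.90e-05), respectively.

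NEDD4 was at 171, 172 and 169 CPM in siNS Eth libraries and at 199, 245 and 226 CPM with Dex. With siHP1γ, NEDD4 was at 142, 157 and 149 CPM with Eth and at 187, 177 and 145 CPM with Dex, and these groups overlapped. With siPRMT5, NEDD4 was at 129, 153 and 143 CPM with Eth and at 256, 331 and 279 CPM with Dex, so that the siPRMT5 Dex libraries were above all others.

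The Dex response of NEDD4 was 2.04-fold in siPRMT5 cells (log2 fold change 1.03 ± 0.097, adjusted p = 7.30e-09). In siNS cells the value was 1.31-fold (0.39 ± 0.096, adjusted p = 0.00879), under the 1.5-fold limit, and in siHP1γ cells 1.14-fold (0.18 ± 0.096, adjusted p = 0.328). The siPRMT5 response differed from that in siNS cells by 0.64 ± 0.14 (interval 0.36 to 0.92, adjusted p = 0.00688), and leaving out any 1 library gave values between 0.54 and 0.73, all called. For siHP1γ the difference was -0.20 (interval -0.48 to 0.08, adjusted p = 0.463).

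PRMT5 depletion went with NEDD4 levels in opposite directions by treatment: lower with Eth (-0.27 ± 0.097, adjusted p = 0.0283) and higher with Dex (0.37 ± 0.095, adjusted p = 0.00241). The Eth difference lost its call without siPRMT5 Eth replicate 1 (adjusted p = 0.135) or 3 (0.0523) and without siNS Eth replicate 2 (0.0611) or 3 (0.0563). In siHP1γ cells NEDD4 was lower with Dex (-0.39 ± 0.095, adjusted p = 0.00332), and the Eth value of -0.19 was not called (adjusted p = 0.137; 0.0132 in a fit of only the libraries compared).

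The ratio of NEDD4L to NEDD4 counts within a library does not depend on library scaling, and is used here only across conditions, since gene length and tag position differ between the genes. It was 1.89 ± 0.039 (SD, n = 3) in siNS Eth and 0.934 ± 0.070 in siNS Dex. In siHP1γ cells it went from 1.18 ± 0.11 with Eth to 0.740 ± 0.076 with Dex, and in siPRMT5 cells from 1.39 ± 0.041 to 0.542 ± 0.060. The ratio was thus 2.03-fold lower with Dex in siNS, 1.59-fold lower in siHP1γ and 2.57-fold lower in siPRMT5 cells. In all 7 comparisons of conditions the libraries did not overlap, and the two-sided exact permutation test gave p = 0.1 (0.1 after Benjamini-Hochberg adjustment), the smallest that 3 against 3 libraries allow, so that this test cannot reach 0.05.

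**Figure D3:**
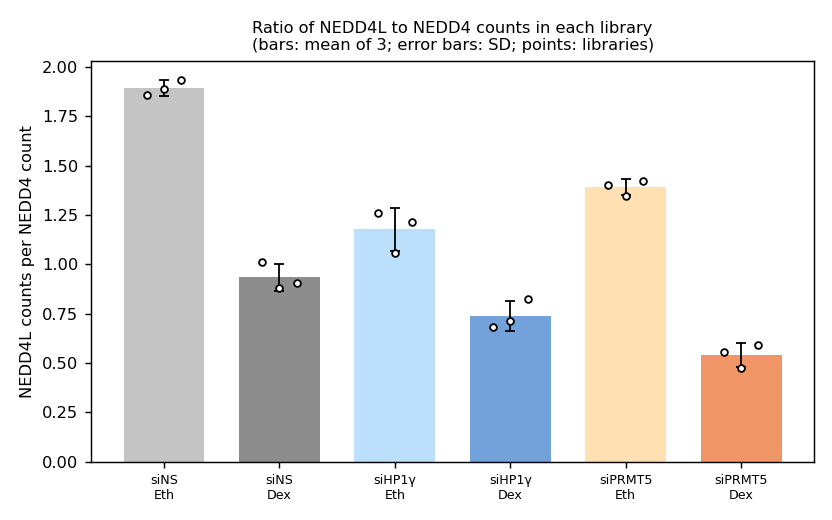
Counts of NEDD4L per count of NEDD4 (y axis, no unit) in each library, with bars at the mean of 3 libraries and error bars for the SD. In each siRNA background the Dex libraries lie below the Eth libraries, from 1.86 to 1.93 in siNS Eth down to 0.475 to 0.593 in siPRMT5 Dex.

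The FOXO factors, which drive genes of cell cycle arrest, atrophy and stress resistance, showed no called Dex response. FOXO4 had the fewest counts of the 7 genes, 53 to 134 per library, which widens its intervals. It was at 7.18, 9.38 and 7.35 CPM in siNS Eth and at 8.39, 5.77 and 7.80 CPM in siNS Dex libraries. Under siHP1γ, FOXO4 was at 10.7, 12.1 and 11.1 CPM with Eth and at 10.5, 9.78 and 11.3 CPM with Dex. Under siPRMT5, FOXO4 was at 12.6, 15.5 and 12.1 CPM with Eth and at 11.7, 10.4 and 12.6 CPM with Dex. All 12 libraries of the depletions were above all 6 siNS libraries.

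FOXO4 rose in siPRMT5 cells 1.67-fold with Eth (0.74 ± 0.15, adjusted p = 2.18e-04) and 1.55-fold with Dex (0.64 ± 0.15, adjusted p = 0.00105). In siHP1γ cells it rose 1.41-fold with Eth (0.50 ± 0.15, adjusted p = 0.0114) and 1.43-fold with Dex (0.51 ± 0.15, adjusted p = 0.0125). The siHP1γ calls rested in part on single libraries: the Dex call was lost without siNS Dex replicate 2 (adjusted p = 0.0950), and the Eth call without siNS Eth replicate 1 (0.0625) or 3 (0.0688) or siHP1γ Eth replicate 2 (0.05001).

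FOXO1 was at 16.1, 14.2 and 12.2 CPM in siNS Eth and at 14.04, 12.2 and 17.6 CPM in siNS Dex libraries. Under siHP1γ, FOXO1 was at 17.4, 17.5 and 20.4 CPM with Eth and at 16.8, 18.5 and 17.2 CPM with Dex. Under siPRMT5, FOXO1 was at 18.4, 19.8 and 24.0 CPM with Eth and at 23.5, 22.4 and 24.3 CPM with Dex. The siPRMT5 libraries were above the siNS libraries of the same treatment, while with Dex the siHP1γ and siNS libraries overlapped.

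In siPRMT5 cells FOXO1 rose 1.47-fold with Eth (0.55 ± 0.13, adjusted p = 0.00131) and 1.59-fold with Dex (0.67 ± 0.13, adjusted p = 1.15e-04). In siHP1γ cells it rose 1.30-fold with Eth (0.38 ± 0.13, adjusted p = 0.0280), a call lost without siNS Eth replicate 2 (adjusted p = 0.0623) or 3 (0.187) or siHP1γ Eth replicate 3 (0.146). With Dex the siHP1γ value was 0.25 (interval -0.01 to 0.52, adjusted p = 0.165), and it was called without siNS Dex replicate 3 (0.41, adjusted p = 0.0395).

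FOXO3 was the steadiest of the 3 factors, with condition means from 32.5 to 41.1 CPM. It was at 35.1, 31.5 and 34.6 CPM in siNS Dex and at 45.3, 39.99 and 38.1 CPM in siHP1γ Dex libraries, which did not overlap. The difference of 1.22-fold was the only one of its 9 comparisons to be called (0.29 ± 0.087, adjusted p = 0.0173). It was lost without siHP1γ Dex replicate 1 (adjusted p = 0.111) or siNS Dex replicate 2 (0.102), with no filter on low counts (0.0580) and in a fit of only the libraries compared (0.0507). FOXO3B had 144 to 276 counts per library, at most 22.7 CPM.

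Around the kinases, 85 further genes were listed in 7 groups by their known role, and 74 of them had enough counts to be tested. The lists were drawn up with earlier results of these data known. Their counts beside the shares of all genes are therefore a description and not a test of enrichment. With Dex in siNS cells 7 of the 74 rose and 1 fell, where 1.65% of all genes tested rose and 1.06% fell. In siHP1γ cells 5 rose and none fell with Dex (1.01% and 0.66% of all genes), and in siPRMT5 cells 8 rose and 6 fell (2.69% and 2.75%). With Dex, siHP1γ against siNS called 15 higher and 15 lower (11.7% and 12.3% of all genes), and siPRMT5 against siNS called 25 higher and 21 lower (20.6% and 21.9%). With Eth the counts were 19 higher and 16 lower for siHP1γ (16.5% and 15.2% of all genes) and 24 higher and 13 lower for siPRMT5 (20.6% and 21.6%). The difference of the Dex response was called lower for 1 gene and higher for none in each depletion, where 0.281% of all genes were lower and 0.118% higher for siHP1γ, and 2.23% and 1.58% for siPRMT5.

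Among 31 genes that FOXO factors are known to induce, 27 were tested. With Dex in siNS cells 4 rose and none fell, where 1.65% of all genes rose and 1.06% fell. Their median log2 fold change was 0.02 beside 0.0036 over all genes. TXNIP, an inhibitor of thioredoxin and of glucose uptake, went from 327 ± 9.3 to 952 ± 110 CPM (SD, n = 3) in siNS cells (1.54, adjusted p = 1.66e-14). BCL6, a transcriptional repressor, rose with Dex from 30.1 ± 3.9 to 75.5 ± 8.2 CPM in siNS cells (1.32, adjusted p = 9.91e-11) and from 34.04 to 51.2 CPM in siHP1γ cells (0.59, adjusted p = 1.45e-04). Its Dex response was smaller in siHP1γ than in siNS cells by -0.73 ± 0.14 (adjusted p = 0.0107), the single called difference of that kind among the 74 genes.

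With Dex, siHP1γ against siNS called 7 of the 27 FOXO targets higher and 5 lower (median 0.13, all genes 0.0049), where 11.7% of all genes were higher and 12.3% lower. In siPRMT5 cells with Dex, 11 were higher and 5 lower (median 0.16, all genes 0.0021), where 20.6% of all genes were higher and 21.9% lower. FBXO32, a muscle atrophy ubiquitin ligase, did not pass the test with Dex (0.01, adjusted p = 0.978) but rose from 17.1 ± 2.2 CPM in siNS Dex to 31.9 ± 1.6 in siHP1γ Dex (0.89, adjusted p = 5.56e-07) and 55.5 ± 5.1 in siPRMT5 Dex libraries (1.69, adjusted p = 9.47e-13). MXI1, an antagonist of MYC, fell in siPRMT5 cells with Dex from 47.4 ± 3.1 to 14.1 ± 2.0 CPM (-1.75, adjusted p = 7.20e-13) and was higher in siHP1γ cells (0.28, adjusted p = 0.0224). Without Dex, FBXO32 was at 17.1, 38.9 and 48.4 CPM in siNS, siHP1γ and siPRMT5 cells, and MXI1 at 51.9, 58.8 and 16.7 CPM. These depletion differences were thus not confined to Dex-treated cells.

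Of 4 sodium channel subunits, SCNN1B and SCNN1G had at most 1 count in any library, and the other 2, SCNN1A and SCNN1D, were tested. SCNN1A was called higher with Dex in siNS, siHP1γ and siPRMT5 cells (1.65%, 1.01% and 2.69% of all genes rose). SCNN1D was not called with Dex in any of them. SCNN1A, the channel's alpha subunit, was at 0.419 CPM in siNS Eth and 5.54 ± 1.5 CPM in siNS Dex libraries (adjusted p = 5.91e-08). It went from 0.288 to 4.38 CPM in siHP1γ cells (adjusted p = 2.42e-07) and from 0.138 to 9.42 CPM in siPRMT5 cells (adjusted p = 4.54e-11). Its Eth levels rest on few counts, so no fold is given. SCNN1A passed the filter on low counts only through its Dex libraries, so the calls add no support beyond the levels themselves.

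In the group of 12 NEDD4 family ligases and adaptors, 1 rose and 1 fell with Dex in siNS cells (median -0.07, 1.65% and 1.06% of all genes). SMURF2, a ligase for TGF-β pathway proteins, fell from 447 ± 15 to 247 ± 13 CPM (-0.85, adjusted p = 4.16e-11), and ARRDC1, an arrestin-like adaptor of these ligases, rose from 13.9 ± 1.2 to 25.01 ± 1.6 CPM (0.85, adjusted p = 7.39e-07). With Dex, siHP1γ against siNS called 4 of the 12 higher and 1 lower (median 0.29, 11.7% and 12.3% of all genes), and siPRMT5 called 4 higher and 4 lower (median 0.18, 20.6% and 21.9% of all genes). WWP1, a ligase of the same family, rose in siHP1γ Dex (0.58, adjusted p = 2.23e-05) and in siPRMT5 Dex cells (0.29, adjusted p = 0.00996). ARRDC3, an adaptor, rose in siPRMT5 Dex cells from 48.5 ± 7.1 to 93.6 ± 3.5 CPM (0.95, adjusted p = 3.26e-09). Without Dex, WWP1 was at 72.2, 95.9 and 90.4 CPM in siNS, siHP1γ and siPRMT5 cells, and ARRDC3 at 61.3, 54.8 and 91.7 CPM.

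Of the 17 genes of kinase input, 16 were tested, and 1 was called with Dex in siNS cells (2.71% of all genes). This was PHLPP1, a phosphatase that dephosphorylates AKT, rising from 21.0 ± 1.4 to 34.9 ± 1.7 CPM (0.73, adjusted p = 9.52e-06). It fell to 11.8 ± 1.7 CPM in siHP1γ Dex cells (-1.57, adjusted p = 7.79e-11), and the group had 3 higher and 3 lower in that comparison (median -0.05, 11.7% and 12.3% of all genes). PHLPP2, its paralog, fell there by 0.58 on the log2 scale (adjusted p = 1.36e-05). In siPRMT5 Dex cells 6 of the group were higher and 5 lower (median 0.05, 20.6% and 21.9% of all genes), with PIK3R1, a regulatory subunit of PI3 kinase, higher by 0.68 (adjusted p = 2.84e-06). Without Dex, PHLPP1 was at 21.0, 10.8 and 17.9 CPM in siNS, siHP1γ and siPRMT5 cells. In the same order, PHLPP2 was at 46.3, 38.5 and 58.4 CPM and PIK3R1 at 48.6, 47.0 and 74.7 CPM.

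Of 10 tested FOXO partners and regulators, none was called with Dex in siNS, siHP1γ or siPRMT5 cells (2.71%, 1.67% and 5.44% of all genes). With Dex, siHP1γ against siNS called 1 higher and 5 lower (median -0.20, 11.7% and 12.3% of all genes), and siPRMT5 called 2 higher and 4 lower (median -0.07, 20.6% and 21.9% of all genes). USP7, a deubiquitinase, fell in siHP1γ Dex cells from 225 ± 9.7 to 130 ± 8.6 CPM (-0.80, adjusted p = 4.11e-09). The 14-3-3 gene YWHAH fell there by 0.52 (adjusted p = 8.63e-07), and in siPRMT5 Dex cells the 14-3-3 genes YWHAQ and YWHAG fell by 0.70 (adjusted p = 1.75e-10) and 0.62 (adjusted p = 9.22e-09). Without Dex, USP7 was at 221 CPM in siNS and 135 CPM in siHP1γ cells, and YWHAH at 325 and 223 CPM. YWHAQ was then at 534 CPM in siNS and 323 CPM in siPRMT5 cells, and YWHAG at 375 and 272 CPM.

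Among other SGK substrates, 4 of 5 were tested and none was called with Dex in siNS cells (2.71% of all genes). NDRG1 is a stress-response protein whose phosphorylation, not measured here, is used as a readout of SGK1 activity. NDRG1 mRNA was 232 ± 20 CPM in siNS Eth and 168 ± 5.5 in siNS Dex (-0.46, adjusted p = 3.16e-05, under the 1.5-fold limit). In siPRMT5 cells it fell with Dex from 172 ± 12 to 73.3 ± 0.71 CPM (-1.23, adjusted p = 1.04e-12), a response that differed from that in siNS cells by -0.77 ± 0.10 (adjusted p = 6.36e-05). GSK3B, a kinase inhibited by phosphorylation, fell in siHP1γ Dex cells (-0.45, adjusted p = 3.38e-04), and TSC2, a brake on mTORC1, rose in siPRMT5 Dex cells (0.30, adjusted p = 0.0106). Without Dex, GSK3B was at 92.5 CPM in siNS and 79.1 CPM in siHP1γ cells, and TSC2 at 48.2 CPM in siNS and 64.0 CPM in siPRMT5 cells. Of the related genes AKT1, AKT2 and FOXO6, none was called with Dex in siNS, siHP1γ or siPRMT5 cells (2.71%, 1.67% and 5.44% of all genes). In siPRMT5 Dex cells AKT1 fell by 0.26 (adjusted p = 0.00706), and its Eth means were 174 CPM in siNS and 181 CPM in siPRMT5 cells. FOXO6 was at 0.338 ± 0.14 CPM in siPRMT5 Dex beside 1.63 ± 0.57 CPM in siNS Dex cells (adjusted p = 0.00113). FOXO6 rests on few counts and passed the filter through conditions other than siPRMT5 Dex, so this call adds no support beyond the levels themselves.

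**Figure D4:**
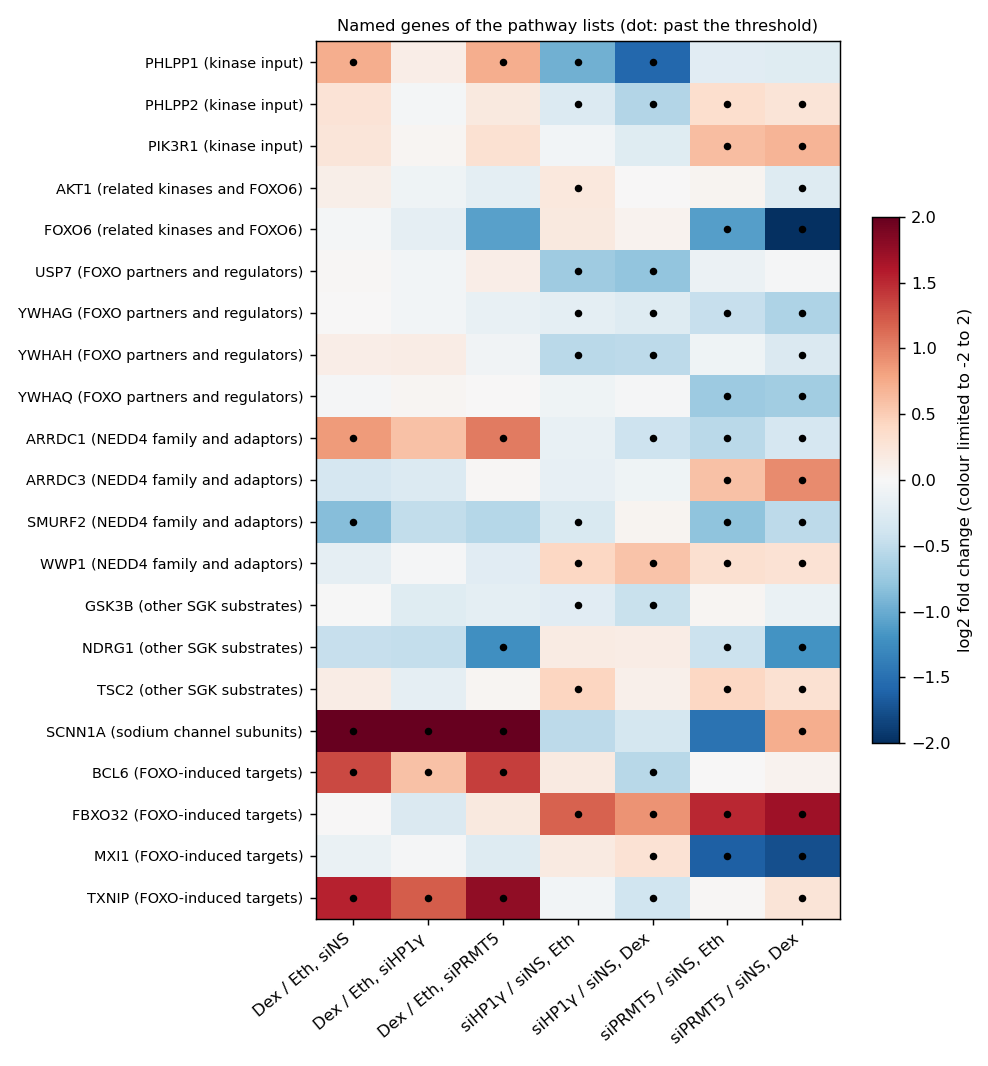
Log2 fold changes (colour, limited to -2 to 2) of the named genes of the 7 pathway groups (rows) in 7 comparisons (columns), with a dot where the change passed the threshold. TXNIP and BCL6 have dots in all 3 Dex columns, and USP7 and YWHAG in both siHP1γ columns. SCNN1A also has dots in all 3 Dex columns, but it entered the tests only through its Dex libraries.

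The genes whose pattern was most like that of SGK1 were sought among the 11410 genes that averaged 5 CPM or more, by the root mean square difference of log2 levels relative to siNS Eth over the other 5 conditions. They were TTLL11 (0.153), ZFP36L2 (0.249), NT5DC3 (0.302), ARMC8 (0.306) and BDNF (0.313). TTLL11 was at 1.40 in siNS Dex, -0.19 in siHP1γ Eth, 0.77 in siHP1γ Dex, 0.46 in siPRMT5 Eth and 1.90 in siPRMT5 Dex, on the log2 scale relative to siNS Eth. SGK1 was at 1.39, -0.36, 0.48, 0.43 and 1.82 in the same order of conditions. This likeness is a description over 6 conditions of 3 libraries each.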

How the data were processed

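The 18 libraries of MDA-MB-231 RNA (6 conditions, 3 biological replicates) were grouped by the sample labels. Per the paper's methods and the submitters' processing notes, the authors mapped reads on hg38 with Bowtie2 2.4.2 and counted them with HTSeq 0.9.1. The authors deposited whole-number counts per gene symbol, without normalization. The strand setting, annotation and read length are not given in the sources used here. A table of the authors' own DESeq2 (2.11.40.7) fold changes and adjusted p-values was not used.

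From the counts, filterByExpr kept 15298 genes. All 18 libraries entered 1 quasi-likelihood fit (edgeR 4.0.16, R 4.3.3; TMM, 12 residual degrees of freedom). Adjusted p-values follow Benjamini-Hochberg over these genes, and each SE was derived from the F statistic of the test. No 2 libraries held identical counts. Scripts were tested on simulated data.

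Since Bowtie2 aligns without introns, junction-spanning reads can go uncounted.

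The 7 genes and all lists were chosen with earlier results of these data known. Named were the 7 genes, the siRNA targets, up to 4 genes per pathway list with the smallest adjusted p among those called in siNS Dex against Eth or in either depletion with Dex, and the 5 genes most like SGK1. A listed gene that is withheld is not reported here. Alternatives were DESeq2 1.42.0, its size factors, library size alone, no filter, at least 10 counts in every library, a replicate block, only the libraries compared, a 2-fold limit, and leaving out each library. Coordinates are from GENCODE 44.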

Additional observations from a re-analysis of the deposited data

Results flagged for a closer look

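The Dex response of SGK1 differed between siHP1γ and siNS cells by an interaction test (log2 difference -0.55, adjusted p = 0.0209), with a response of 1.39 in siNS and 0.84 in siHP1γ cells and every Dex library above every Eth library in both. The Dex response of NEDD4 differed between siPRMT5 and siNS cells by the same test (0.64, adjusted p = 0.00688), with 1.03 in siPRMT5 and 0.39 in siNS cells. The other 5 genes passed neither interaction test.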

How the results depend on the processing

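Of 441 values of the 7 genes recomputed under alternatives other than leaving out a library, 430 kept their direction and their side of the threshold, as did 1085 of 1134 with 1 library left out. The cause of the changes was not tested. With a 2-fold limit, 1 of the 7 genes was called for Dex in siNS and 0 in siHP1γ cells, and 194, 106 and 373 genes of all were called in siNS, siHP1γ and siPRMT5 cells in place of 414, 255 and 832. DESeq2 called 2 of the 7 for the siPRMT5 difference of the Dex response. For SGK1 that difference was near 0 and turned positive with DESeq2 (0.0054), its size factors in edgeR (0.0057) and at least 10 counts in every library (0.0038), and lay between -0.021 and 0.043 with 1 library left out. SGK1's siHP1γ difference lay between -0.61 and -0.48 with 1 library left out.

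With 1 library left out, the genes called of the 7 were 3 to 6 for siHP1γ with Dex (3 without siNS Dex replicate 2), 2 to 4 with Eth (2 without siNS Eth replicate 3), 0 to 1 for the siHP1γ difference and 1 to 2 for the siPRMT5 difference. Uncalled values that changed sign then ranged, for Dex in siNS, from -0.10 to 0.16 (FOXO1) and -0.22 to 0.024 (FOXO4). For Dex in siHP1γ cells they ranged from -0.21 to 0.12 (SGK3), -0.11 to 0.0077 (FOXO1) and -0.037 to 0.091 (FOXO3). For the siHP1γ difference they ranged from -0.23 to 0.033 (FOXO1) and -0.12 to 0.13 (FOXO4, also -0.0026 with no filter), and for the siPRMT5 difference from -0.23 to 0.017 (FOXO4).

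Over all genes, the siHP1γ difference was called for 61 genes, for 298 by DESeq2, 374 with no filter and 20 to 186 with 1 library left out. The siPRMT5 difference was called for 582 and for 319 to 897 with 1 left out.

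The main fit did not pair libraries by replicate number. Same-numbered libraries had correlations of deviations from -0.19 to 0.31 (median 0.0066), and differently numbered libraries from -0.32 to 0.32 (median -0.0047). Of 18 libraries, 10 correlated best with their own number. These values do not settle whether the numbers mark pairs. The replicate block called 94 genes in place of 61 for the siHP1γ difference and left the number called among the 7 as it was in all 9 comparisons. Under the block, SGK3's Dex value in siHP1γ cells was -0.0051.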
